A study of Mus musculus with 26 samples.

Results

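The 39 genes described here encode the steps by which mouse liver burns fatty acids, together with a ketone body enzyme and a few regulators of fuel use, and they were read out in 26 RNA sequencing libraries of mouse liver. They were chosen by gene symbol, through the identifier of each row of the count table, out of 47643 genes listed there. All 39 were found and all passed the filter on low counts in each of the 5 comparisons, so no member was lost to low expression. Each of 10 groups belongs to 1 of 5 experiments with its own control, in a study titled for the handling of drugs by livers in which bile flow is impaired.

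In the knockout experiment, whole livers without Fxr, a nuclear receptor for bile acids, and Shp, a repressor that it induces (Fxr-/- Shp-/-), were set against wild type C57BL/6J livers (3 libraries each, 12 weeks of age, fed ad libitum). In the cholic acid experiment, both groups were C57BL/6J mice homozygous for floxed Fxr and floxed Shp alleles, and the labels name no Cre. They were 10 to 12 weeks old, had fasted 8 to 10 h and ate either chow or a diet containing the bile acid cholic acid (3 whole livers each). In the hepatectomy experiment, C3H/HeN livers at 48 h after partial hepatectomy were set against sham livers at 0 h (3 whole livers each, 8 to 10 weeks, fed ad libitum), so operation and time differ together. In the high fat experiment, hepatocytes isolated after a 10 h fast came from wild type C57BL/6J mice of 16 weeks on a 60% fat diet or on chow (2 libraries each). In the TCPOBOP experiment, whole livers of wild type C57BL/6J mice of 8 weeks, fed ad libitum, received TCPOBOP, an agonist of the nuclear receptor CAR, or corn oil (2 libraries each). The labels disagree on the time after injection, 36 h in the titles and 6 h in the source names. The labels do not say whether libraries came from separate mice, so the p-values measure only the spread between these libraries.

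A fatty acid entering the hepatocyte is carried by a binding protein, joined to coenzyme A and passed into the mitochondrion as a carnitine ester. There, repeated rounds of dehydrogenation, hydration, a second oxidation and thiolysis shorten it, electrons leave through the electron transfer flavoprotein, and the acetyl-CoA made can be turned into ketone bodies during fasting. Very long and branched chains, and bile acid precursors, are shortened first in the peroxisome. The nuclear receptor PPAR alpha, which fatty acids activate, is the known inducer of many of these genes in mouse liver. It binds direct repeats of a short DNA element.

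Promoter sequences of 33 members (37 start sites) were found in RefSeq (GRCm38.p6) and searched on both strands for the direct repeat AGGTCANAGGTCA, from 250 bases before to 50 bases after each start. The exact repeat was in 0 of the 37 and in 0.0396% of 32851 promoters of all genes. With 1 mismatch allowed it was in 2 of the 37 (5.41%) and in 0.554% of all promoters. The matches lay before Fabp1 and Acot12, in the minus strand reading, as AGGCCATAGGTCA and AGGTGAGAGGTCA, with the base farthest upstream at -67 and -110 from the RefSeq start site. A match is a description of letters, not a site shown to be used, and sequence outside this window was not searched. Both genes are named in the results that follow, so their upstream stretches are shown on the plus strand, ending before the GENCODE M21 gene start, which lies upstream of the RefSeq start in both, with the match in capitals:
Fabp1, chr6:71199629-71199826: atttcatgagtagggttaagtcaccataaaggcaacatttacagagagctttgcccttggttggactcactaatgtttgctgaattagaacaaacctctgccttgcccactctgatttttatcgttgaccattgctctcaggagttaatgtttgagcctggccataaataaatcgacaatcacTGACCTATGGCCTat
Acot12, chr13:91741271-91741511: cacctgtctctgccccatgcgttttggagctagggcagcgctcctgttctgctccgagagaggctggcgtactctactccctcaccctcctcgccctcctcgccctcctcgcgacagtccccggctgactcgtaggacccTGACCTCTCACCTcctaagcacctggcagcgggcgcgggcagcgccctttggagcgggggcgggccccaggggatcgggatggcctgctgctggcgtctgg

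The acyl-CoA thioesterases Acot2, Acot1, Acot4 and Acot3 lie in this order on the plus strand of chromosome 12, with 15.6, 20 and 3.54 kilobases between neighbours (GENCODE M21 on GRCm38). Acot3 had log2 fold changes from -1.88 to 2.24 over the 4 comparisons other than TCPOBOP, while Acot1 was called in none of the 5, so the stretches upstream of Acot1, Acot2 and Acot3 are shown beside each other:
Acot1, chr12:84009252-84009489: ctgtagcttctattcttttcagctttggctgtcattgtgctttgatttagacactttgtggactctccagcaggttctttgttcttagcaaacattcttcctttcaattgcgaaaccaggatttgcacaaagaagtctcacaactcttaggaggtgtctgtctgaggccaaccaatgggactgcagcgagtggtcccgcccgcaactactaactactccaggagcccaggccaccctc
Acot2, chr12:83987611-83987860: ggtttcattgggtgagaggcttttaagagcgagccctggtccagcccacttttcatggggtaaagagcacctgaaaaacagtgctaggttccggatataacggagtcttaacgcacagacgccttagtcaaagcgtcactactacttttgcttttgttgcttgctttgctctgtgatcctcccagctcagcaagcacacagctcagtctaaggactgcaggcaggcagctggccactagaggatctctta
Acot3, chr12:84051894-84052143: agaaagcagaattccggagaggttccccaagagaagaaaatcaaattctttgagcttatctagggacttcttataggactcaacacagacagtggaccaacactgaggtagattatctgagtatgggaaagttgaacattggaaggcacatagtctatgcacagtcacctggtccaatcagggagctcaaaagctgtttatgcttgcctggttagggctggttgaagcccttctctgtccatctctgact
The longest run of letters shared by any pair of the 4 upstream windows was 9 bases. The transcripts were more alike. Of the 50-base words of Acot1 33.6%, and of those of Acot2 27.7%, occur in transcripts of any other gene. Each shares the most words with the other. Reads may thus have been split or discarded between such genes, and the values of Acot1 and Acot2 are uncertain as single genes. The same holds for Acaa1a and Acaa1b (34 and 35.5% found in any other gene, most in each other). It also holds for Acot3 (19.5%, most with the predicted gene Gm49366), Hadhb (62.4%, most with the predicted gene Gm13910) and Eci2 (7.19%). Etfb is a further case (67.3%, most with the predicted gene Gm45233, which overlaps it on the same strand). Exons of 15 members overlap a gene on the opposite strand, with the largest share in Acadvl (42.9% of its exons, with Dvl2), and whether the counting used strand is not given in the sources used here.

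Reads assigned to genes ranged from 13949059 to 70367874 per library. Reads with no gene were 23 to 33.6% of each library outside the wild type group of the knockout experiment, where they were 47.6 to 48.6%, mostly reads that aligned to several places; its knockout libraries had 32.1 to 33.6%. The part of this gap in the knockout comparison was not tested. Levels are given as CPM, the count of a gene relative to its library's total of reads in genes that passed the filter on low counts. These totals were scaled by TMM within an experiment. Nr0b2, the Shp gene, was at 0.594 to 1.68 CPM in the knockout libraries and at 13.7 to 28.2 CPM in wild type, and Nr1h4, the Fxr gene, at 55.7 to 65 against 117 to 161 CPM. The library labelled corn oil 1 went against its label: the CAR target Cyp2b10 was at 3786 CPM there, at 10.3 CPM in corn oil 2, and at 3465 and 3079 CPM with TCPOBOP. Pairs within a group differed most for corn oil (mean chi-square of 188 per gene) and for the third chow library of floxed mice against the others (116 and 114), and by 7.48 to 64.3 elsewhere. Of 8 listed hepatocyte markers, which are not members, 7 were used. These summed to between 49936 and 137792 CPM over the 26 libraries.

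Per kilobase of annotated exons, with all exons of a gene merged (GENCODE M21), Fabp1, the liver fatty acid binding protein, had the highest mean level of the members in all 5 control groups, from 2402 ± 110 (SD, n = 3) CPM per kilobase in wild type to 6885 ± 339 in sham. Acaa2 and Acaa1b, the last thiolase of the mitochondrial and of the peroxisomal spiral, took the next places in all 5 groups on this length. Places below Fabp1 depend on the length used, since the merged exons of Acsl1 hold 10483 bases and its longest coding transcript 3897. In the hepatocytes on chow, Acaa2 at 546 ± 36.4 and Acaa1b at 569 ± 137 (SD, n = 2) did not differ beyond their spread. The same held in floxed mice on chow (643 ± 61.7 and 582 ± 78, n = 3), whereas Acaa2 was higher in sham (545 ± 12.7 and 270 ± 16.1, n = 3). Acot2, the mitochondrial thioesterase, was among the 3 lowest in all 5. Vnn1, which encodes the pantetheinase vanin-1, was the lowest of all 39 in sham livers of the C3H/HeN strain, at 0.569 ± 0.297 CPM per kilobase, with 0.686, 1.32 and 2.12 CPM in the 3 libraries; every C57BL/6J library of the other 4 experiments had at least 23.5 CPM. Hadhb and Etfb differed in level by experiment. Hadhb, the beta subunit of the mitochondrial trifunctional protein, was at 32.7 to 52.9 CPM in the 6 libraries of the knockout experiment and at 118 to 292 CPM in the other 20. Its partner Hadha, whose start lies 85 bases away on the opposite strand, showed no such gap. In those 6 libraries Gm13910, which shares sequence with Hadhb, was at 121 to 177 CPM, against 1.13 to 5.9 CPM in the others. Etfb, the beta subunit of the electron transfer flavoprotein, was at 26 to 45.6 CPM in the 6 libraries of the knockout experiment and at 4.99 to 14 CPM elsewhere, with Gm45233 listed at 0 in all libraries. How reads were shared between such copies was not tested, and levels of Hadhb and Etfb are not compared across experiments here.

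**Figure D1:**
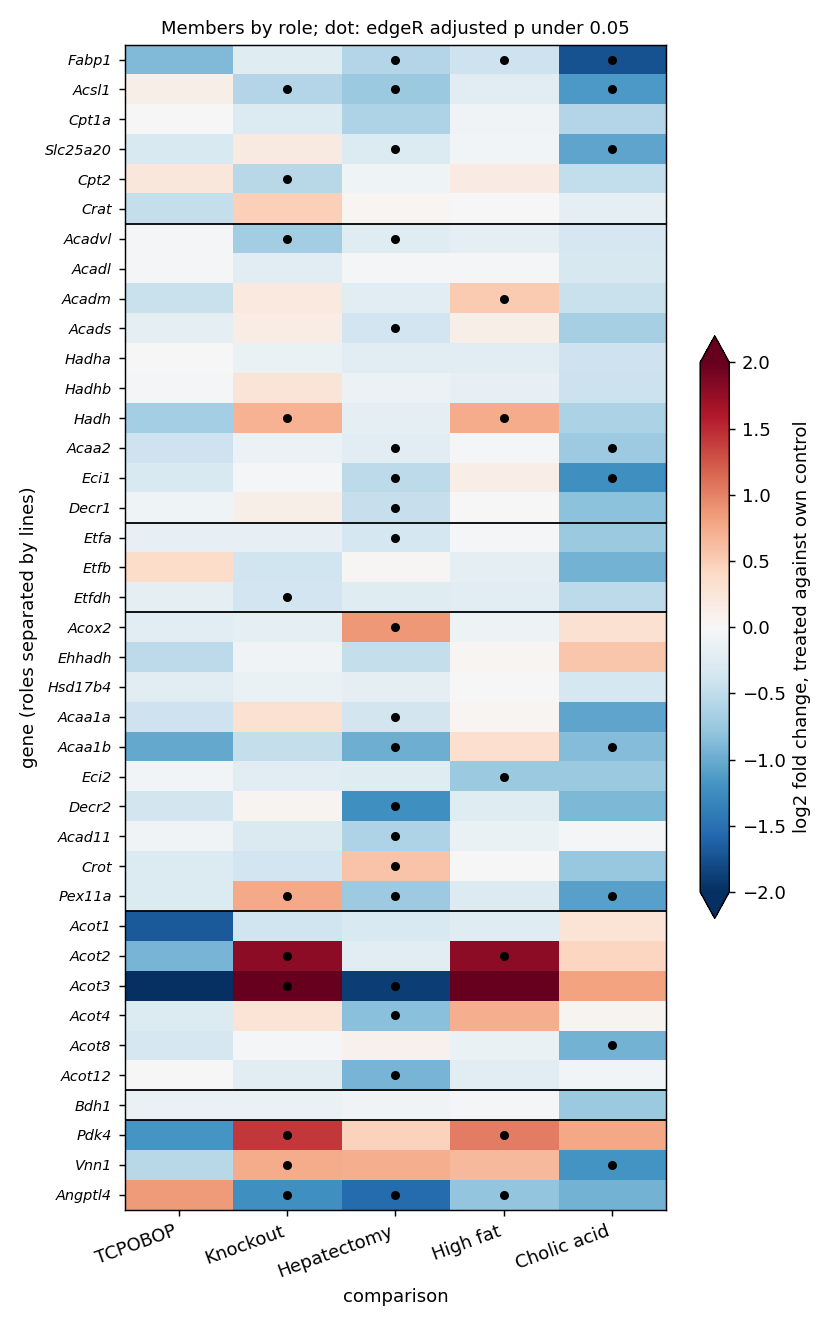
Heat map of the log2 fold change of each member (rows, ordered by role, with lines between roles) in the 5 comparisons (columns); a dot marks an edgeR adjusted p under 0.05. The columns hold 0, 11, 20, 7 and 9 dots from left to right; colours stop at -2 and 2.

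Loss of Fxr and Shp changed 11 of the 39 members, 6 of them higher and 5 lower. By role, 2 of 6 genes of activation and the shuttle were lower, 1 of 10 of mitochondrial beta-oxidation was higher and 1 lower, 1 of 3 of the electron transfer flavoprotein was lower, 1 of 10 of peroxisomal oxidation and 2 of 6 thioesterases were higher, and of 3 other PPAR alpha targets 2 were higher and 1 lower. The thioesterases Acot3 and Acot2 rose 4.74-fold and 3.46-fold and Pdk4, the kinase that shuts pyruvate dehydrogenase and so spares glucose, 2.66-fold. Angptl4, a secreted inhibitor of lipoprotein lipase, fell to 0.428 of wild type, and the very long chain dehydrogenase Acadvl to 0.616. Over all genes 40.4% were called (21% higher and 19.4% lower), so the members' share is below the background of this comparison. The median log2 fold change of the members was -0.13 and that of all genes -0.01. The libraries of the groups did not overlap in 15 members, 8 below and 7 above wild type, which was so for 26.9% and 26.5% of all genes. Calls are at a Benjamini-Hochberg adjusted p under 0.05 over all genes tested in edgeR's quasi-likelihood test.

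Acot3, a peroxisomal thioesterase, was at 4.46, 3.23 and 5.08 CPM across the wild type libraries, against 16.9, 14.7 and 29 CPM without Fxr and Shp (log2 fold change 2.24, SE 0.28, adjusted p 0.000452). Acot2 was at 5.05, 4.43 and 6.71 CPM across the wild type libraries, against 12.8, 14.3 and 28.8 CPM without Fxr and Shp (log2 fold change 1.79, SE 0.32, adjusted p 0.00272). Pdk4 was at 12, 9.43 and 13.1 CPM across the wild type libraries, against 27.3, 27.7 and 36.6 CPM without Fxr and Shp (log2 fold change 1.41, SE 0.16, adjusted p 0.000258). In each of these genes the groups did not overlap, and the third knockout library was the highest. Acot1, the cytosolic neighbour of Acot2, did not pass the test: it was at 61.1, 39.9 and 74.6 CPM across the wild type libraries, against 25.4, 33.1 and 74.9 CPM without Fxr and Shp, with the groups overlapping through the third knockout library.

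Among the members that fell, Angptl4 was at 254, 232 and 300 CPM across the wild type libraries, against 84.8, 85.8 and 165 CPM without Fxr and Shp (log2 fold change -1.23, SE 0.25, adjusted p 0.00501). Acadvl was at 616, 535 and 633 CPM against 321, 352 and 425 CPM (log2 fold change -0.70, SE 0.13, adjusted p 0.00309). Acsl1, which joins fatty acids to coenzyme A, was at 1228, 1132 and 1228 CPM against 618, 692 and 1089 CPM (log2 fold change -0.58, SE 0.20, adjusted p 0.0433). In each of these genes all knockout libraries lay below all wild type libraries, and the third knockout library was the nearest to wild type. Cpt2, the inner carnitine palmitoyltransferase, fell to 0.685 and Etfdh, which hands the electrons on to ubiquinone, to 0.763 of wild type. Hadh, the mitochondrial dehydrogenase for short hydroxyacyl chains, rose 1.63-fold, from 287, 234 and 280 CPM to 406, 444 and 453 CPM. Pex11a, a factor for peroxisome division, rose 1.7-fold and Vnn1 1.67-fold.

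The other anchor genes of the pathway did not pass. Cpt1a, the entry point of the carnitine shuttle, averaged 533 ± 25.5 CPM in wild type against 442 ± 83.1 CPM without Fxr and Shp (SD, n = 3). Ehhadh, the peroxisomal bifunctional enzyme, varied most: 999, 638 and 1193 CPM in wild type against 524, 637 and 1541 CPM. Fabp1, Acadm, Hadha, Acaa1b and the ketone body dehydrogenase Bdh1 had log2 fold changes from -0.48 (Acaa1b) to 0.19 (Acadm). Leaving out the third knockout library gave 19 calls (6 higher, 13 lower), beside 43.9% of all genes in that fit (23% higher, 20.9% lower). Of the genes called there, Cpt1a (log2 fold change -0.43), Ehhadh (-0.69), Acot1 (-0.99) and Eci2 (-0.59) were not called with all libraries. The same held for Acadl (-0.33), Acox2 (-0.23), Acad11 (-0.41) and Acot12 (-0.41). Without wild type 1 there were 8 calls, beside 3969 of 13792 genes tested. Acsl1 and Etfdh lost their call on leaving out any library except the third knockout library. Pex11a lost its call on leaving out wild type 1 or wild type 2.

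Of 47 other genes of fatty acid and ketone metabolism, 15 were higher and 10 lower in the knockout, again beside 40.4% of all genes. The largest rise was that of the acyl-CoA dehydrogenase Acad12, from 6.66, 5.57 and 6.41 CPM to 75.3, 85.2 and 90.5 CPM. The largest fall was that of Nudt7, a peroxisomal coenzyme A hydrolase, from 154, 146 and 93.1 CPM to 42.2, 41.5 and 41.1 CPM. Ppara itself fell to 0.507 of wild type. Of the cell type markers, 5 of 6 cholangiocyte and 4 of 6 stellate cell genes were higher and 3 of 7 hepatocyte genes lower in the knockout, with summed cholangiocyte levels of 58 to 136 against 27.3 to 38.2 CPM and stellate cell levels of 401 to 462 against 184 to 306 CPM. No cholangiocyte or stellate cell marker was at 0. Of the Kupffer cell and macrophage genes 2 of 8 were higher and 1 lower (summed levels 212 to 432 against 147 to 336 CPM), and of the endothelial genes 2 of 6 were higher (130 to 195 against 71.3 to 134 CPM). Of 3 lymphocyte and neutrophil genes tested 1 was higher, S100a8, with list sums of 16.6 to 34.9 against 5.69 to 9.37 CPM; Ly6g was at 0 in both groups. Their part in the member values was not tested, and in whole tissue fewer cells of a type and less RNA per cell cannot be told apart.

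**Figure D2:**
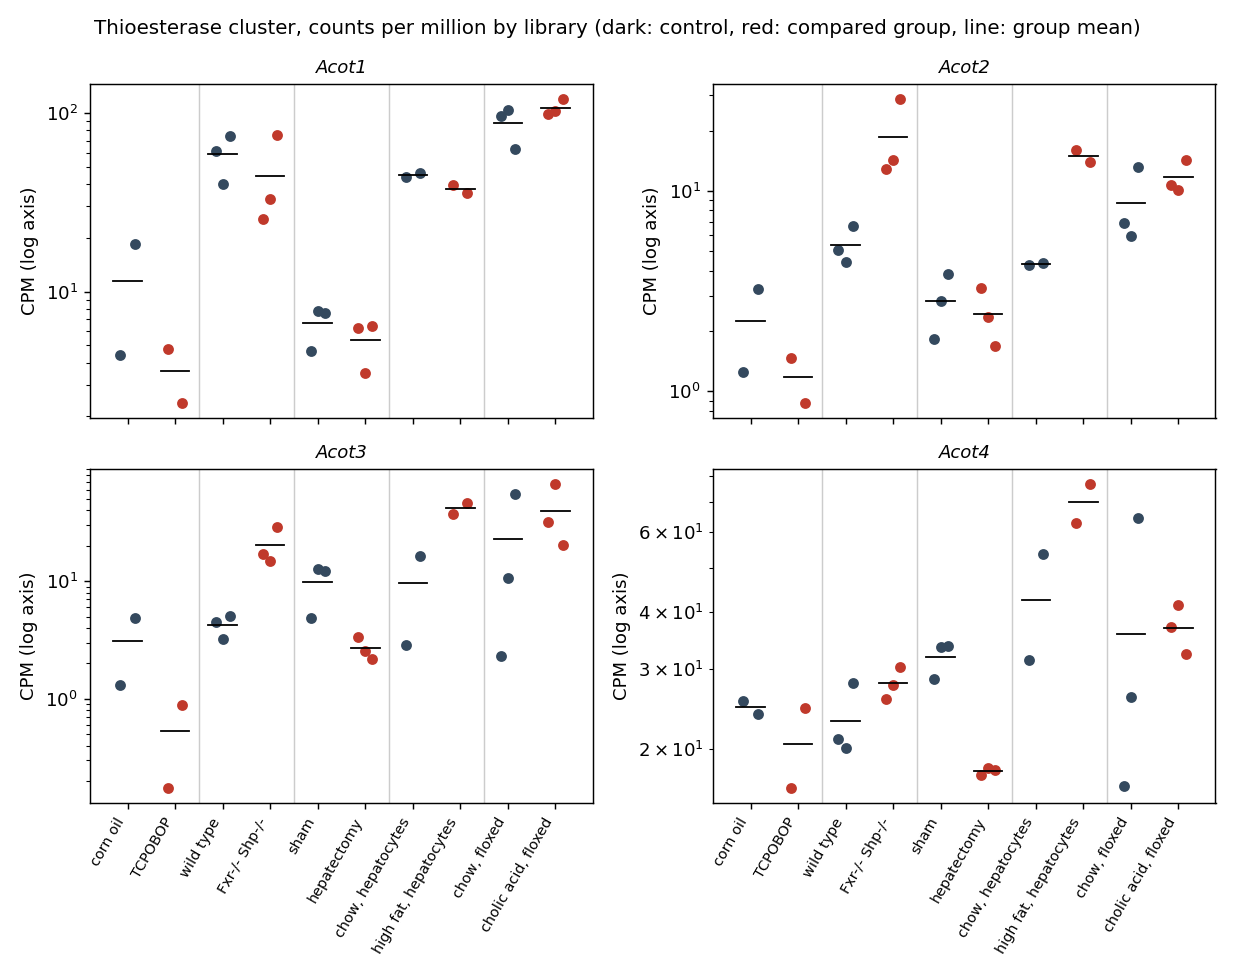
Levels in CPM (log axis) of Acot1, Acot2, Acot3 and Acot4 in all 26 libraries, by group; dark points are controls, red points the group compared with them, and lines are group means. Acot2 and Acot3 stand higher in every knockout library than in every wild type library, and the 3 chow libraries of floxed mice spread from 2.32 to 55.5 CPM in Acot3.

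Cholic acid feeding lowered 9 of the 39 members and raised none, beside 4.77% of all genes called (2.27% higher, 2.5% lower). Fabp1 fell furthest, to 0.299 of chow, Acsl1 to 0.451 and the carnitine carrier Slc25a20 to 0.482. The mitochondrial isomerase Eci1 fell to 0.43, the thiolase Acaa2 to 0.604, Pex11a to 0.469, Acaa1b to 0.55, the peroxisomal thioesterase Acot8 to 0.517 and Vnn1 to 0.435. The values of 32 members lay below 0, with a median log2 fold change of -0.63 against 0.01 over all genes. In 27 members every cholic acid library was below every chow library, which was so for 15.7% of all genes; the reverse was so for no member and 15.5% of all genes. At an unadjusted p under 0.05 there were 25 members and 23.1% of all genes.

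Fabp1 was at 3345, 3381 and 4668 CPM on chow and at 1111, 855 and 1443 CPM on cholic acid (log2 fold change -1.74, SE 0.25, adjusted p 0.0111). Eci1, which moves double bonds so that unsaturated chains can be oxidized, was at 159, 166 and 202 CPM on chow and at 70.5, 79.6 and 76.4 CPM on cholic acid (log2 fold change -1.22, SE 0.16, adjusted p 0.00903). Vnn1 was at 68.5, 59.8 and 73.2 CPM on chow and at 23.5, 32.8 and 31.4 CPM on cholic acid (log2 fold change -1.20, SE 0.18, adjusted p 0.0113). The groups of these 3 genes were far apart. Acsl1 was at 1833, 1410 and 1605 CPM against 809, 614 and 762 CPM, and Slc25a20 at 194, 199 and 286 CPM against 113, 108 and 107 CPM. Pex11a, at 238, 225 and 145 CPM against 98.6, 76.9 and 109 CPM, was lowest in the third chow library, where Fabp1, Eci1 and Slc25a20 were highest.

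By role, 3 of 6 genes of activation and the shuttle, 2 of 10 of mitochondrial beta-oxidation, 2 of 10 of peroxisomal oxidation and 1 of 6 thioesterases fell, and 0 of 3 of the electron transfer flavoprotein. Vnn1 was the 1 of 3 other PPAR alpha targets to fall. All 10 members of mitochondrial beta-oxidation nevertheless had values below 0, from -1.22 to -0.32. So did all 3 of the electron transfer flavoprotein, from -0.94 to -0.52. In these 3 every cholic acid library was below every chow library, and the lowest adjusted p in edgeR's test was 0.0604. Cpt1a was at 530, 449 and 622 CPM on chow and at 429, 323 and 321 CPM on cholic acid, and its log2 fold change of -0.58 had an adjusted p of 0.134. Cpt2, Acadm and Hadha had fold values of 0.706, 0.734 and 0.748 with no call. Bdh1 was at 181, 154 and 285 CPM against 130, 98.1 and 141 CPM (adjusted p 0.136). Angptl4 was at 295, 350 and 174 CPM against 174, 143 and 111 CPM, the groups nearly meeting at 174 CPM (adjusted p 0.098).

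Some members did not share the low values. Ehhadh was at 583, 465 and 639 CPM on chow and at 914, 569 and 989 CPM on cholic acid (fold 1.47, adjusted p 0.22). Acot1, Acot2, Acot3 and Acot4 had values between 0.05 and 0.80, none called, Acox2 0.31 and Pdk4 0.78; these and Ehhadh are the 7 members with values above 0. In Acot3 and Pdk4 the third chow library, at 55.5 and 26.2 CPM, stood among the cholic acid libraries, while the other chow libraries were at 2.32 and 10.6 CPM and at 5.52 and 4.89 CPM. Leaving it out gave 17 calls (2 higher, 15 lower), beside 10.4% of all genes (5.55% higher, 4.83% lower), and in that fit Pdk4 (2.01) and Acot2 (0.87) were the members called higher. Leaving out any other library left 3 to 5 calls. Without chow 1 there were 5, beside 298 of 12977 genes tested, and without chow 2 there were 4, beside 194 of 12965. Without each cholic acid library there were 3, beside 271 of 12729, 189 of 12775 and 196 of 12719 genes. With all libraries 600 of 12577 genes were called, so calls became fewer over all genes too. Fabp1, Eci1 and Vnn1 were called in all 6 of these fits and Acsl1, Slc25a20, Acaa2, Acaa1b, Pex11a and Acot8 were each lost in 4 or 5 of them.

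Of the 47 other pathway genes, 10 fell (21.3%) and 1 rose (2.13%) on cholic acid, beside 2.5% lower and 2.27% higher over all genes. The largest fall was that of Nudt7, from 690, 396 and 977 CPM to 66.7, 44.8 and 40.3 CPM, and the rise was that of the coactivator Ppargc1a, from 7.33, 9.9 and 10.3 CPM to 19.6, 20 and 18.6 CPM. Acat1, which supplies acetoacetyl-CoA, fell to 0.364 of chow; Ppara was not called (fold 0.799). Of the other cell type markers 2 rose, 1 of 8 of Kupffer cells and 1 of 6 of stellate cells, with summed Kupffer cell levels of 186 to 298 against 85.9 to 193 CPM. Their part was not tested.

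**Figure D3:**
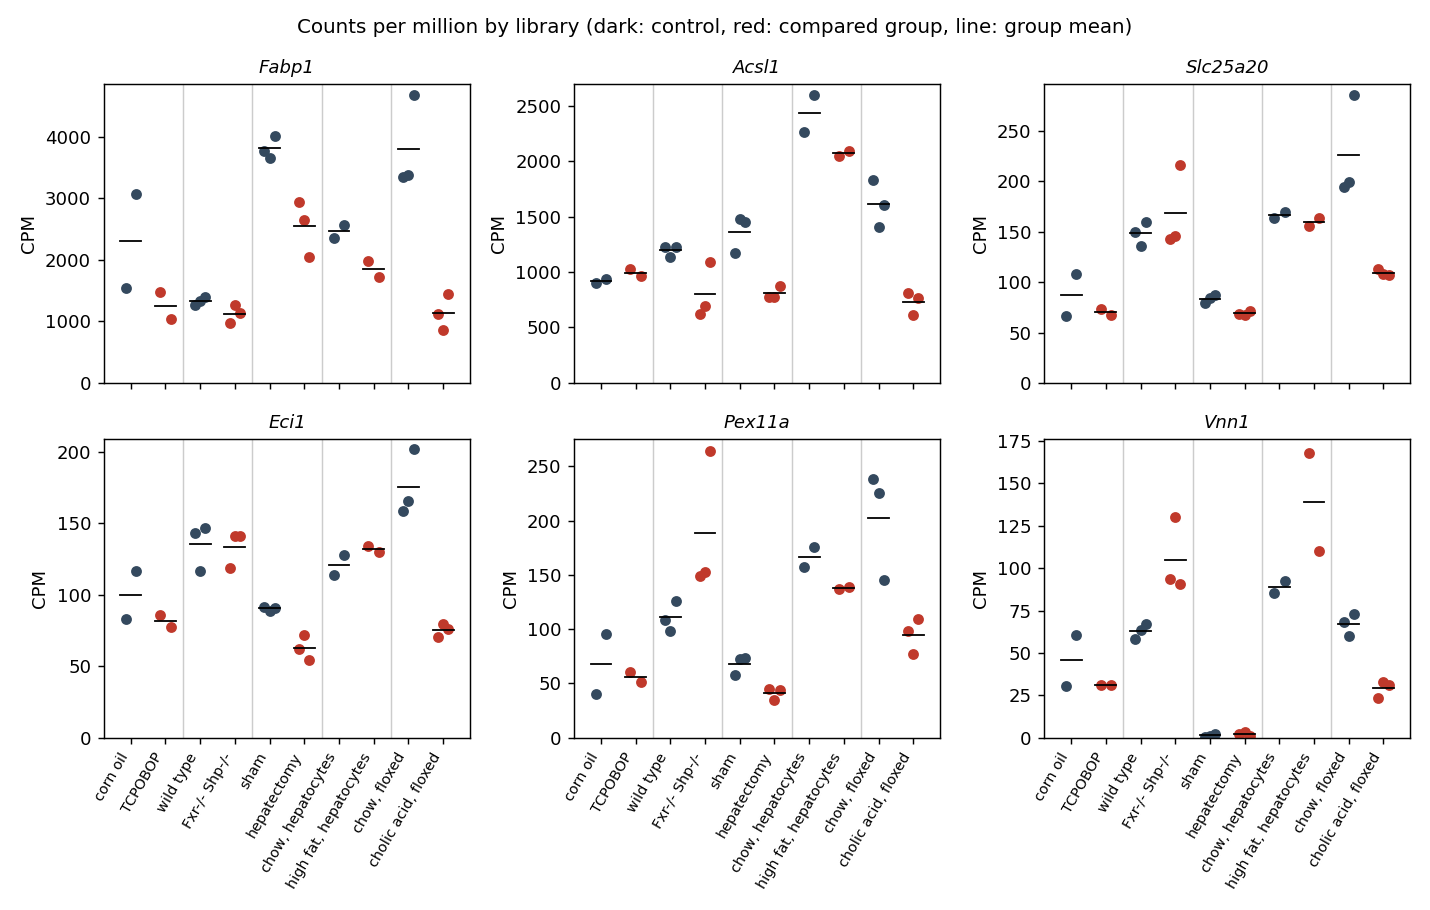
Levels in CPM (linear axes from 0) of Fabp1, Acsl1, Slc25a20, Eci1, Pex11a and Vnn1 in all libraries, by group; dark points are controls, red points the group compared with them, and lines are group means. In every panel the 3 cholic acid libraries lie below the 3 chow libraries; Vnn1 is near 0 in the hepatectomy experiment.

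The knockout and cholic acid effects, both relative to their own controls, differed in 10 of 39 members in a test of the difference itself, beside 13.9% of all genes (7.18% higher, 6.74% lower in the knockout). All 10 were higher in the knockout relative to cholic acid feeding. The largest difference was that of Vnn1 (1.95 on the log2 scale, SE 0.24, adjusted p 0.000355), which rose in the knockout and fell with cholic acid. Pex11a also rose in the first and fell in the second (1.86, SE 0.34, adjusted p 0.00366). Fabp1 (1.51), Slc25a20 (1.23) and Eci1 (1.20) fell with cholic acid and were not called in the knockout, where their folds were 0.848, 1.13 and 0.987. Hadh (1.34) rose in the knockout and was not called with cholic acid. Acaa1a (1.36), Decr2 (0.96), Decr1 (0.93) and Acads (0.82), enzymes of the thiolase, dienoyl-CoA reductase and short chain dehydrogenase steps, were not called in either alone. No difference passed for Angptl4 (-0.29, SE 0.41) or Ehhadh (-0.62, SE 0.51). The calls for Vnn1, Pex11a, Fabp1, Slc25a20, Eci1, Hadh and Acaa1a stood on leaving out each library; Acads and Decr2 were each lost in 9 and Decr1 in 7 of the 12 fits. The 2 experiments differ in feeding state and in the floxed alleles, which cannot be told apart from the difference between knockout and diet.

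Partial hepatectomy lowered 18 and raised 2 of the 39 members at 48 h, beside 30.7% of all genes called (14.3% lower, 16.4% higher). Falls were spread over the roles: 3 of 6 in activation and the shuttle, 5 of 10 in mitochondrial beta-oxidation, 1 of 3 in the electron transfer flavoprotein, 5 of 10 in peroxisomal oxidation, 3 of 6 among the thioesterases and, of the other PPAR alpha targets, Angptl4. The called falls ran from -0.23 to -1.88 on the log2 scale, and the median of all 39 members was -0.25 against 0.01 for all genes. In 24 of the 39 members all hepatectomy libraries were below and in 2 all were above the sham libraries. Over all genes the shares were 22.6% below and 24.4% above. The proliferation marker Mki67 was at 68 to 113 CPM after hepatectomy and at 1.37 to 2.58 CPM in sham.

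Acot3 had the largest fall, from 4.9, 12.6 and 12.2 CPM to 3.32, 2.56 and 2.16 CPM (log2 fold change -1.88, SE 0.36, adjusted p 0.00593). Angptl4 went from 62.7, 104 and 107 CPM to 43.7, 25.8 and 24.7 CPM (log2 fold change -1.54, SE 0.27, adjusted p 0.00415). Decr2, the peroxisomal dienoyl-CoA reductase, went from 161, 237 and 242 CPM to 105, 94.7 and 73.8 CPM (log2 fold change -1.23, SE 0.18, adjusted p 0.00199). The groups did not overlap, and in each gene sham 1 was the lowest sham library and the first hepatectomy library the highest of its group. Acox2, the peroxisomal oxidase that acts on branched chains and bile acid precursors, rose from 173, 124 and 122 CPM to 236, 244 and 285 CPM (log2 fold change 0.87, SE 0.15, adjusted p 0.00369). Crot, which exports shortened chains from the peroxisome as carnitine esters, rose from 244, 223 and 209 CPM to 382, 361 and 262 CPM (log2 fold change 0.57, SE 0.14, adjusted p 0.0191). The 2 rises were thus in peroxisomal genes, and the call for Crot was lost without sham 2, sham 3, or the first or second hepatectomy library.

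Acaa1b fell to 0.51, Acot12, the cytosolic acetyl-CoA hydrolase, to 0.525 and Acot4 to 0.56 of sham. Acot12 was at 135, 165 and 152 CPM in sham and at 89.4, 83.8 and 64.5 CPM after hepatectomy. Acsl1, Pex11a, Acad11, Fabp1, Eci1, Decr1, Acads, Acaa1a, Etfa, Slc25a20, Acadvl and Acaa2 fell to between 0.593 and 0.852 of sham. Fabp1 was at 3762, 3647 and 4014 CPM in sham and at 2939, 2647 and 2046 CPM after hepatectomy. Cpt1a, at 563, 811 and 763 CPM against 607, 492 and 294 CPM, overlapped and was not called (adjusted p 0.099). Cpt2, Acadm, Hadha, Ehhadh, Acot1 and Bdh1 were not called either, with folds from 0.723 to 0.952, and Pdk4 and Vnn1 had folds of 1.38 and 1.65 at levels of at most 8.38 CPM, with no call. Calls for Slc25a20, Acadvl and Acaa2 were each lost in 4 or 5 of the 6 fits that leave out a library, that of Acaa1a without sham 2 or sham 3 and that of Fabp1 without sham 3.

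Among the 47 other pathway genes 23 fell (48.9%) and 2 rose (4.26%), beside 14.3% lower and 16.4% higher over all genes. The largest called fall was that of Acacb, whose product makes the malonyl-CoA that blocks Cpt1a, from 187, 157 and 155 CPM to 48.4, 26.4 and 60.2 CPM. The rises were those of Slc16a1, a monocarboxylate carrier, from 41.4, 45.7 and 42.8 CPM to 64.8, 71.2 and 87 CPM, and of Oxct1, which uses ketone bodies, from 4.51, 4.63 and 3.22 CPM to 8.22, 6.49 and 6.3 CPM. Of 7 hepatocyte markers 3 were lower and 2 higher, and of 6 stellate cell markers 2 were higher, with summed stellate cell levels of 191 to 217 against 154 to 205 CPM. Of the other lists, 1 of 8 Kupffer cell and macrophage genes and 1 of 5 tested cholangiocyte genes were higher and 1 of 6 endothelial genes lower. Their summed levels were 140 to 210 against 126 to 204 CPM, 23.8 to 35.5 against 25.9 to 41.5 CPM, and 184 to 194 against 178 to 250 CPM. The part of these cells in the member values was not tested.

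The knockout and hepatectomy effects differed in 15 members, 11 higher and 4 lower in the knockout, beside 31.5% of all genes (15.4% higher, 16% lower). Acot3 differed most (4.14 on the log2 scale, SE 0.50, adjusted p 5.69e-05), having risen in the knockout and fallen after hepatectomy. Acot2 (2.02, SE 0.50, adjusted p 0.00799) and Pex11a (1.5, SE 0.28, adjusted p 0.00136) followed. Acox2 (-1.05, SE 0.18) and Crot (-0.93, SE 0.22) differed the other way. Angptl4, which fell in both, did not differ (0.33, SE 0.40, adjusted p 0.57), an estimate whose error leaves room for a sizeable difference. The call for Acadvl (-0.43) was lost in 10 and that for Eci1 (0.52) in 7 of the 12 fits that leave out a library, that for Acaa1a (0.69) in 3 and that for Acot12 (0.72) in 2. Strain and age differ between these 2 experiments as well and cannot be told apart from the condition.

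**Figure D4:**
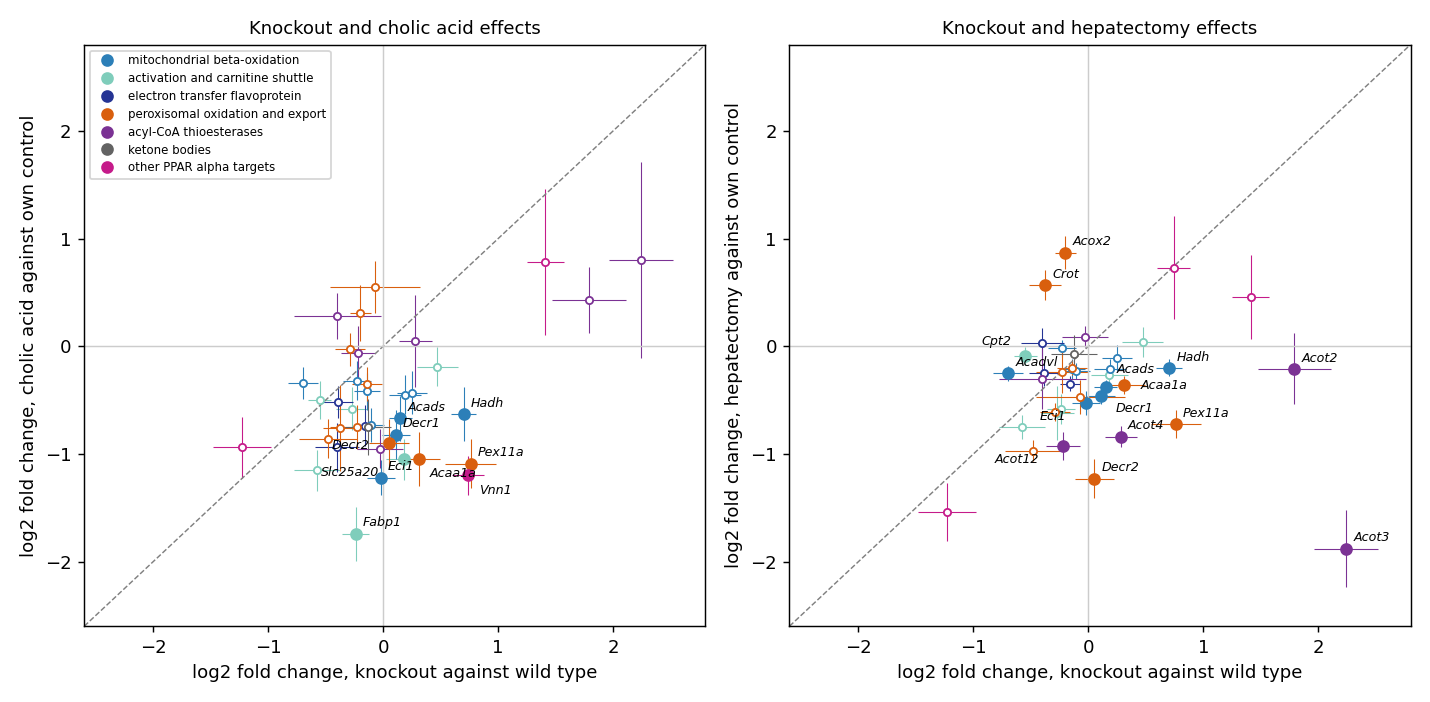
Log2 fold change of each member in the knockout (horizontal axis) against its log2 fold change with cholic acid (left) or hepatectomy (right), with standard errors; colours give roles, filled and named points differ between the experiments at an adjusted p under 0.05, and the dashed line marks equal effects. The 10 named points on the left lie below the line, and on the right 11 lie below it and 4 above.

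High fat feeding changed 7 of the 39 members in isolated hepatocytes, 4 higher and 3 lower, beside 24% of all genes (12.9% higher, 11.1% lower). The median log2 fold change of the members was -0.03 against 0.01 over all genes. In 16 of the 39 members both high fat libraries were below and in 10 both were above the chow libraries. Over all genes the shares were 33% below and 35.1% above. Acot2 rose 3.47-fold, Pdk4 2.04-fold, Hadh 1.67-fold and Acadm, the medium chain dehydrogenase, 1.43-fold. Angptl4 fell to 0.578, the peroxisomal isomerase Eci2 to 0.596 and Fabp1 to 0.751 of chow.

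Acot2 was at 4.28 and 4.37 CPM on chow and at 16 and 14 CPM on high fat (log2 fold change 1.79, SE 0.13, adjusted p 0.00182). Pdk4 was at 6.48 and 3.71 CPM against 10.7 and 10 CPM (log2 fold change 1.03, SE 0.26, adjusted p 0.0388). Hadh was at 260 and 299 CPM against 477 and 459 CPM (log2 fold change 0.74, SE 0.10, adjusted p 0.0087). Acadm stood at 383 and 384 CPM on chow and at 573 and 525 CPM on high fat. These groups did not overlap. Angptl4 was at 286 and 290 CPM on chow and at 160 and 173 CPM on high fat (log2 fold change -0.79, SE 0.09, adjusted p 0.00521). Eci2 was at 348 and 308 CPM against 191 and 200 CPM (log2 fold change -0.75, SE 0.10, adjusted p 0.00792), and Fabp1 at 2357 and 2560 CPM against 1975 and 1719 CPM (log2 fold change -0.41, SE 0.11, adjusted p 0.0437).

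Acot3 had the largest value of all members, from 2.87 and 16.3 CPM to 37.3 and 46.2 CPM, but its chow libraries were far apart and it was not called (log2 fold change 2.12, SE 0.68, adjusted p 0.0723). Vnn1, at 85.5 and 92.2 CPM against 168 and 110 CPM, was not called (adjusted p 0.0627). Cpt1a, Cpt2, Hadha, Ehhadh, Acaa1b, Acot1 and Bdh1 had folds from 0.839 to 1.26 with no call. With 2 libraries a group, leaving out a library leaves a lone sample that is assumed to vary like the other group. Acot2, Hadh, Eci2 and Angptl4 were called in all 4 such fits. Fabp1 lost its call in all 4 fits, Pdk4 without either high fat library and Acadm without high fat 1.

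Of the 47 other pathway genes 11 rose (23.4%) and 7 fell (14.9%), beside 12.9% higher and 11.1% lower over all genes. Abcd2, a peroxisomal importer of very long chains, rose most, from 3.27 and 4.2 CPM to 46.9 and 41.2 CPM, and Lpin1, a phosphatidate phosphatase and coactivator, fell most, from 1060 and 735 CPM to 71.1 and 199 CPM. Markers of other liver cells were low in these hepatocytes but higher on high fat: 6 of 6 endothelial, 5 of 6 stellate cell and 5 of 8 Kupffer cell genes were called higher. Their summed levels were 93.7 to 96.3 against 38.4 to 40.3 CPM, 36.1 to 38.1 against 8.99 to 15.2 CPM, and 50.7 to 57 against 31.5 to 32 CPM. Of 7 hepatocyte genes 2 were lower, and the 1 lymphocyte and neutrophil gene that could be tested was higher, with list sums of 2.16 to 2.5 against 0.66 to 1.37 CPM. Of 5 adipocyte genes 1 could be tested and was higher, with sums of 2.33 to 2.34 against 0.0535 to 0.173 CPM and Retn and Lep at 0 on high fat. The cholangiocyte genes Krt19, Epcam and Cftr were at 0 in both chow libraries, and Cftr also on high fat. The part of these cells in the member values was not tested.

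The knockout and high fat effects differed in 2 members, beside 16.1% of all genes (7.98% higher, 8.11% lower). Cpt2 was lower in the knockout relative to high fat feeding (-0.70 on the log2 scale, SE 0.15, adjusted p 0.00912) and Pex11a higher (1.04, SE 0.30, adjusted p 0.0399). Acot2, with the same 1.79 in each comparison, had a difference of 0 with an SE of 0.41. Hadh and Pdk4 rose and Angptl4 fell in both, with no call on their differences; that does not show that the 2 conditions act alike, and tissue, age and fasting differ too. Leaving out the third knockout library gave 6 differences, beside 2768 of 14085 genes tested. The call for Pex11a was lost without wild type 1, wild type 2 or any of the 4 hepatocyte libraries.

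**Figure D5:**
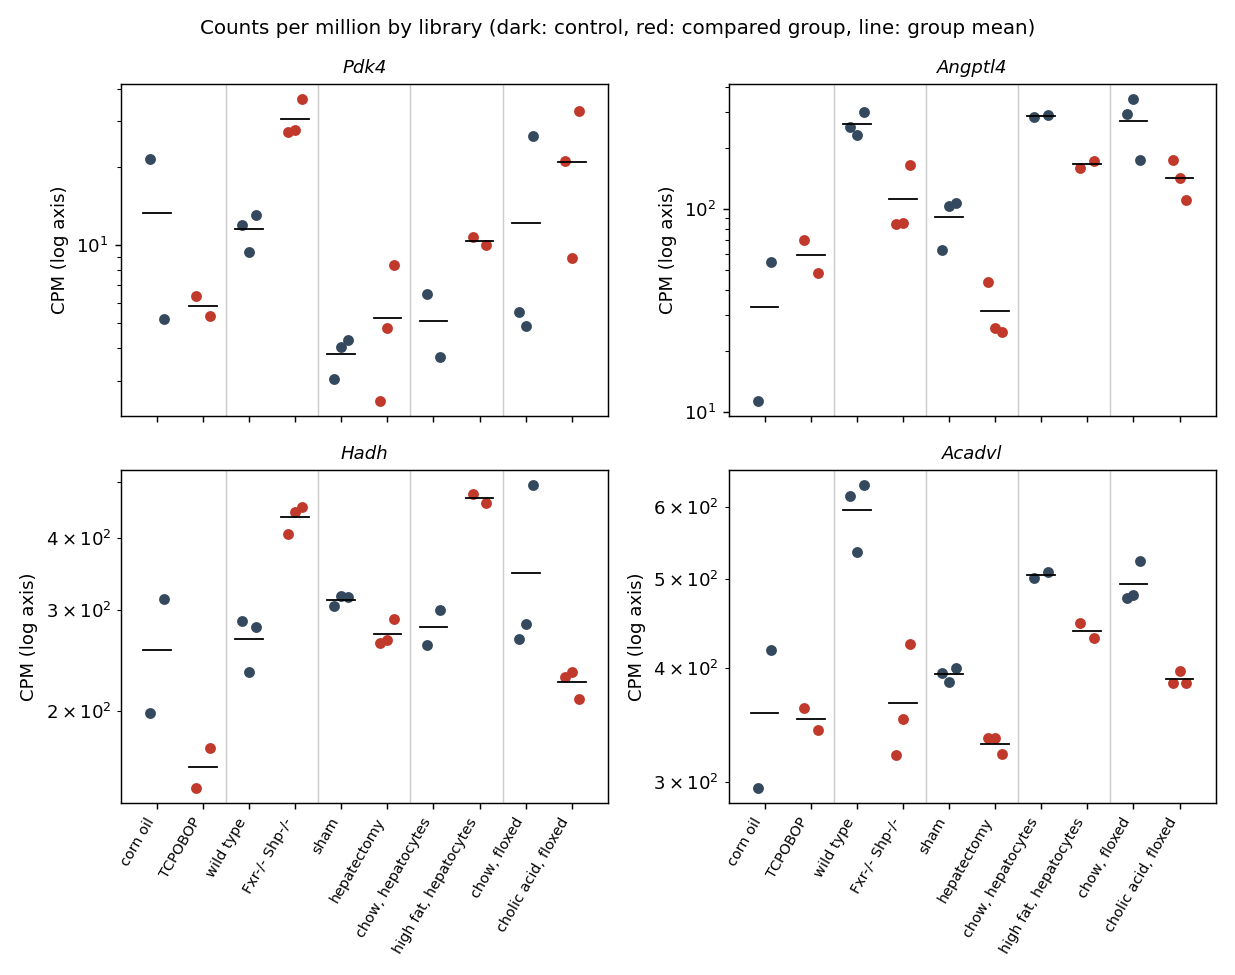
Levels in CPM (log axis) of Pdk4, Angptl4, Hadh and Acadvl in all 26 libraries, by group; dark points are controls, red points the group compared with them, and lines are group means. Pdk4 and Hadh stand above and Angptl4 below their own controls in every knockout and every high fat library, and the library labelled corn oil 1 (left of its group) is apart from corn oil 2 in Pdk4 and Angptl4.

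In the TCPOBOP experiment no member was called, as was no gene of 12785 tested (0% of all genes). At an unadjusted p under 0.05 there were 3 members and 751 genes (5.87%), and DESeq2's Wald test called 0 members and 109 genes. Because the library labelled corn oil 1 has Cyp2b10 at the level of the TCPOBOP libraries, no direction is drawn from this comparison. The values of 35 members lay below 0, with a median of -0.27. The groups did not overlap in 7 members below and 2 above corn oil. Over all genes the shares were 18.7% below and 16.8% above.

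The 2 corn oil libraries were far apart in several members. Fabp1 was at 1543 and 3072 CPM with corn oil and at 1468 and 1037 CPM with TCPOBOP. Acaa1b was at 452 and 1396 CPM against 521 and 382 CPM, and Acot1 at 4.43 and 18.5 CPM against 4.76 and 2.39 CPM. In these genes the library labelled corn oil 1 lay near the TCPOBOP libraries and corn oil 2 above them. Angptl4 was at 11.3 and 54.7 CPM with corn oil and at 70.5 and 48.4 CPM with TCPOBOP. Pdk4 was at 21.4 and 5.21 CPM against 6.35 and 5.34 CPM, and Cpt1a at 138 and 309 CPM against 225 and 218 CPM. In these 3 genes corn oil 1 stood apart from the TCPOBOP libraries too. Vnn1 was at 30.5 and 60.7 CPM with corn oil and at 31 CPM in both TCPOBOP libraries. Acot3, which had the value farthest from 0, was at 1.31 and 4.87 CPM with corn oil and at 0.176 and 0.88 CPM with TCPOBOP. Cpt2, Acadm, Hadha, Ehhadh and Bdh1 had mean levels of 132, 290, 314, 266 and 236 CPM with corn oil and of 154, 212, 314, 184 and 214 CPM with TCPOBOP.

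Without the library labelled corn oil 1, 15 members were called, all lower with TCPOBOP, beside 9.35% of all genes (3.64% lower, 5.71% higher). They included Acot3 (log2 fold change -3.21), Acot1 (-2.36), Acaa1b (-1.63) and Fabp1 (-1.29), and that fit rests on a lone corn oil library. Without corn oil 2, 3 members were called beside 3.14% of all genes (1.51% higher, 1.64% lower), Angptl4 (2.4) and Cpt1a (0.68) higher and Pdk4 (-1.86) lower, which are not among the 15.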

How the data were processed

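Liver RNA was sequenced as stranded messenger RNA libraries (TruSeq), per the labels' protocols. The authors deposited whole-number read counts per gene; bcl2fastq 2.17.1.14, Trimmomatic, STAR 2.4.2a, Picard 1.119, HTSeq and the GRCm38 and mm10 builds are named in the submitters' processing notes. The annotation release and strand setting are not given in the sources used here. Symbols matched 47224 of 47643 identifiers; 5 summary rows that are no gene (23 to 48.6% of a library's reads) were left out of totals and tests.

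Each comparison was fitted alone in edgeR 4.0.16 (limma 3.58.1, R 4.3.3): filterByExpr (minimum count 10, minimum total 15), TMM scaling, quasi-likelihood F test, Benjamini-Hochberg adjustment over all genes, calls at an adjusted p under 0.05. The 3 differences between effects were interaction contrasts over 2 experiments. Standard errors are the size of the log2 fold change over the root of F. CPM were scaled by TMM within an experiment, and depth differed between libraries (13949059 to 70367874 reads).

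The members and lists were chosen with earlier results of these data known. Genes named per comparison are the called members with the 3 largest rises and falls, 12 anchors of the pathway, and the other called members by fold; of 47 other pathway genes, the called extremes. Others (Ppara, Acat1, single members shown for contrast) were named after their values were seen. Coordinates come from GENCODE M21 and promoters from RefSeq. Alternatives were DESeq2 size factors, DESeq2 1.42.0, other filters (none, or a mean count of 10 or more), a replicate block, a single fit of 26 libraries, and each library left out. The procedure was tested on simulated data for the knockout, high fat and knockout minus cholic acid tests only. Of genes given a log2 change of 1.5, it called 89.2%, 80.9% and 44.1%, in this order. Of unchanged genes it called 16 of 13103, 21 of 13458 and 6 of 13444. The test of a difference thus missed many changes of that size.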

Additional observations from a re-analysis of the deposited data

Results flagged for a closer look

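Each result here is a difference between the knockout effect and the effect of another condition, each relative to its own control, that passed edgeR's test of the difference itself; values are on the log2 scale and positive where the knockout value was higher. Groups of fewer than 4 libraries were not searched for single samples that stand apart.

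Between knockout and cholic acid diet, 10 members differed: Vnn1 by 1.95, Pex11a by 1.86, Fabp1 by 1.51, Acaa1a by 1.36, Hadh by 1.34, Slc25a20 by 1.23, Eci1 by 1.2, Decr2 by 0.96, Decr1 by 0.93 and Acads by 0.82.

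Between knockout and hepatectomy, 15 members differed: Acot3 by 4.14, Acot2 by 2.02, Pex11a by 1.5, Decr2 by 1.3, Acot4 by 1.13, Hadh by 0.91, Acot12 by 0.72, Acaa1a by 0.69, Decr1 by 0.58, Acads by 0.54, Eci1 by 0.52, Acadvl by -0.43, Cpt2 by -0.44, Crot by -0.93 and Acox2 by -1.05.

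Between knockout and high fat diet, 2 members differed: Pex11a by 1.04 and Cpt2 by -0.7. Pex11a is the member that differed in all 3 tests, which share the knockout and wild type libraries.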

How the results depend on the processing

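Of 74 calls on members over the 7 comparisons and differences that had any, 42 stood in all 6 alternatives, 48 on leaving out each library and 36 in all of these; 0 changed direction. Those on all counts were 6 of 11 in the knockout, 11 of 20 after hepatectomy, 2 of 7 on high fat and 3 of 9 on cholic acid (Fabp1, Eci1 and Vnn1). In a single fit of 26 libraries the number called was 11 after hepatectomy, 2 on high fat, 22 on cholic acid, 6 for knockout minus hepatectomy and 1 for knockout minus high fat; over all genes, that fit moved the share of higher calls on high fat from 53.7 to 68.4%. DESeq2's Wald test called 18 members on cholic acid. With each library left out the number ranged from 0 to 15 for TCPOBOP, 8 to 19 for the knockout, 14 to 21 after hepatectomy, 4 to 9 on high fat, 3 to 17 on cholic acid, 7 to 13 for knockout minus cholic acid, 12 to 15 for knockout minus hepatectomy and 1 to 6 for knockout minus high fat. Cpt1a, at -0.01 for TCPOBOP, gave -0.48 when the library labelled corn oil 1 was left out and 0.68 when corn oil 2 was (adjusted p 0.0516 and 0.0262 in edgeR). Over all genes, a single fit called 3132, DESeq2 1445 and the fit with no filter 955 genes on cholic acid against 600, the single fit 1735 on high fat against 3333, and for the knockout minus cholic acid and minus high fat 2991 and 1282 against 1939 and 2297 (the share of higher calls in the last went from 49.6 to 39.2%); for TCPOBOP the single fit called 9 and DESeq2 109 against 0. The causes were not tested.

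The titles give groups the same replicate numbers, but no label says that a number marks a shared litter, batch or day. Deviations of same-numbered libraries from their group means correlated at 0.125, 0.158 and 0.0889 on cholic acid, where every library correlated best with its own number, and at -0.208 to 0.119 in the knockout and hepatectomy experiments; with 2 libraries a group the value was 0.133 for TCPOBOP and 0.137 for high fat. With the replicate block the members called were 0 for TCPOBOP, 13 for the knockout and 17 after hepatectomy. They were 9 on high fat, 5 on cholic acid, and 9, 15 and 2 for the differences to cholic acid, hepatectomy and high fat. Over all genes tested, in the same order, the block called 0 of 12785, 4763 of 13473, 3664 of 13753, 3693 of 13892 and 480 of 12577. For the differences it called 1536 of 13935, 4108 of 14755 and 1858 of 14280. Members near or under 5 CPM, such as Acot2 and Acot3 in some groups, rest on fewer reads than members at higher levels in the same library. A low level did not always go with a large standard error, as for Acot2 on high fat.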
